A study of Mus musculus with 20 samples.

Results

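Roux-en-Y gastric bypass (RYGB) was compared with sham surgery in livers of mice that ate chow after the operation. The comparison Sham Chow vs. RYGB Chow covers 10 of the series' 20 mice, 5 in each group, and the 12289 of 54532 listed genes that had at least 2 CPM (counts scaled to the size of each library) in at least 3 mice of the series. All were male C57BL/6 mice made obese by 12 weeks on a high-fat diet (HFD), so the Sham Chow mice too had been obese before they were changed to chow. After RYGB or sham surgery the mice of both groups ate chow for 8 weeks, and 1 whole-liver poly-A RNA library was sequenced per mouse. The remaining 10 mice, Sham HFD and RYGB HFD, returned to the high-fat diet after the same operations and are used here where the surgery difference on chow is set beside that on HFD. The authors reported the Sham HFD mice to be heavier than the mice of every other group. Diet and body weight therefore cannot be told apart where surgery on HFD is set against surgery on chow.

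RYGB leads food past most of the stomach, the duodenum and the upper jejunum, the stretch of gut where iron, zinc and other micronutrients are mainly taken up. The liver adjusts to body iron through hepcidin, the hormone encoded by *Hamp*, which closes ferroportin, the route by which iron leaves gut cells and macrophages. *Hamp* transcription is driven by bone morphogenetic protein (BMP) signals that sinusoidal endothelial cells release when iron is plentiful and that hepatocytes read through SMAD proteins, and by inflammation through STAT3. Kupffer cells, the resident macrophages of the liver sinusoids, recycle iron from old red cells and are a main source of complement C1q.

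Sham Chow vs. RYGB Chow differed in few genes past correction for multiple testing. Among the 7 genes with an adjusted p under 0.05, 6 were higher in RYGB Chow (0.0488% of the genes tested) and 1 was lower (0.00814%). The zinc importer gene *Slc39a4* and the retinol dehydrogenase gene *Rdh9* led them. Below that threshold, *Hamp* was lower in every RYGB Chow mouse than in any Sham Chow mouse. Of 12 macrophage markers, 11 were higher at an unadjusted p under 0.05, and 0 after adjustment. All 31 genes tested of the respiratory chain list had a fitted level below that of Sham Chow, while 50% of all genes lay above it. The mice of the groups overlapped in the median level of that list. At an unadjusted p under 0.05, 5.7% of the genes tested (700) had higher and 5.09% (625) had lower levels after RYGB. These shares are the background for every count of list genes at that threshold in the fit of all mice. Scaled by library size alone, the numbers were 927 higher and 379 lower, so the balance of directions depends on the scaling. The 5 RYGB Chow mice all lay above the 5 Sham Chow mice in 91 genes (0.74%) and all lay below them in 73 (0.594%). The words rose and fell are used only for genes past an adjusted p of 0.05. With 5 mice against 5, the exact permutation test used beside the model can give no p below 0.00794.

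**Figure D1:**
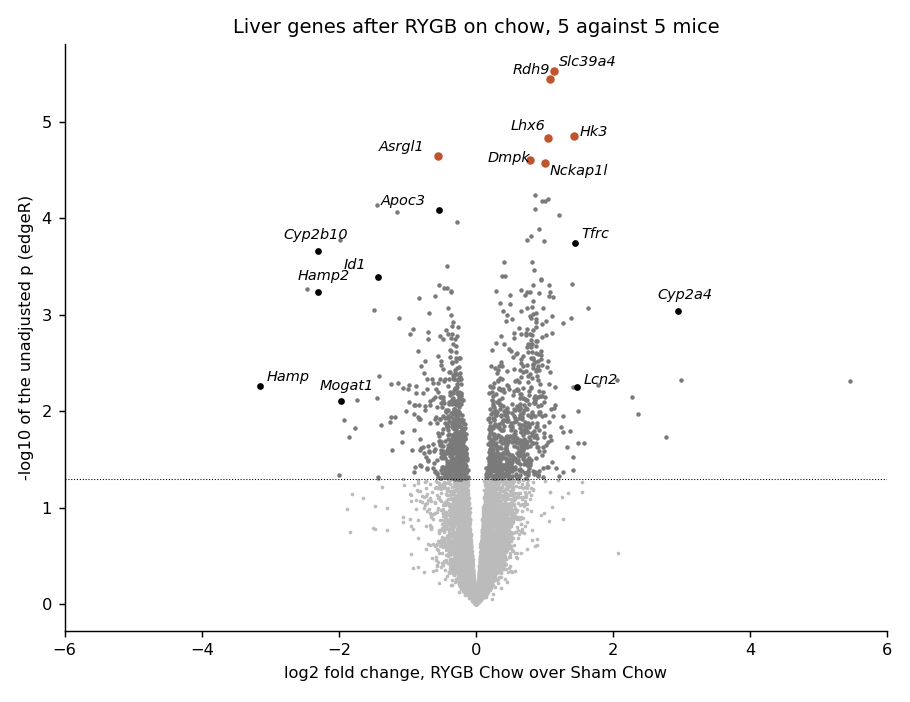
Each point is 1 of the 12289 genes tested, placed by its log2 fold change of RYGB Chow over Sham Chow and by the −log10 of its unadjusted p in edgeR's quasi-likelihood test. The dotted line marks an unadjusted p of 0.05, the 7 orange points have an adjusted p under 0.05, and black points mark other genes named in the text, among which *Hamp* has the lowest fold change at -3.15 but a large error.

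A pair of RYGB Chow mice stood apart from the rest and touch many of the results. The distance of a mouse from its group was taken as the root mean square difference in log2(CPM + 0.5) from the median of its 4 group mates. It was 0.432 for RYGB Chow 3 and 0.437 for RYGB Chow 5, against 0.271 to 0.370 for the other 8 chow mice. The first principal component of the 10 mice (27.4% of the variance) had its extreme at RYGB Chow 3, and the second (16.1%) at RYGB Chow 5. RYGB Chow 3 lay at least 2-fold above all 9 other chow mice in 22 genes and at least 2-fold below them in 47, and RYGB Chow 5 did so in 27 and 33 genes, against at most 7 genes in each direction for any other mouse. Serine synthesis genes marked RYGB Chow 3. *Psat1* had 586 raw counts there against 1 to 27 in the other chow mice, and *Phgdh* had 428 against 0 to 11. Neither gene reached the filter on low values. In RYGB Chow 5, interferon-inducible and antigen presentation genes were high, with *Igtp* at 209 CPM against 21.3 to 43.7 in the other 9 mice and *H2-Aa* at 79.8 against 19.2 to 37.2, while the endothelial receptor gene *Kdr* stood at 14.2 CPM against 31.9 to 66.8. The labels name no batch, RNA quality value or cage for these mice, and the results that rest on either mouse are given with and without it. *H2-Aa*, *Kdr*, *Psat1* and *Phgdh* were picked to describe these mice after their values were seen.

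The liver origin of the libraries was plain in all 10 mice. The 12 hepatocyte identity genes summed to between 88674 and 108482 CPM in Sham Chow and between 80412 and 127717 in RYGB Chow, and none differed between the groups at an unadjusted p under 0.05. Of 11 markers of T, B and NK cells, 10 did not reach the filter, and of 10 pancreas and gut markers 8 did not. Total counts ran from 14604854 to 22516253 per chow mouse, and the labels give no batch within which the values could be compared.

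*Slc39a4* (ENSMUSG00000063354, chromosome 15 from 76612383 to 76617384 on GRCm38), which encodes the zinc importer ZIP4, had the smallest p of all genes. In mice 1 to 5 it measured 41.2, 39.4, 31.3, 29.3 and 47.8 CPM in Sham Chow and 71.5, 84.4, 85.2, 69.3 and 105 CPM in RYGB Chow. The groups were separated by a wide gap, and the means were 37.8 ± 7.53 (SD, n = 5) and 83.0 ± 14.1 (n = 5). The gene rose by 1.13 on the log2 scale (standard error 0.18, adjusted p = 0.0222), which is a 2.19-fold difference. It was also higher after RYGB on HFD, by 0.82 (standard error 0.18, adjusted p = 0.00323), and the test of the difference between the diets did not pass (interaction adjusted p = 0.504). Without either Sham Chow 1, Sham Chow 3 or Sham Chow 4 its adjusted p was 0.0541, 0.109 and 0.110, at fold changes of 1.17, 1.07 and 1.06.

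*Rdh9* (ENSMUSG00000056148, chromosome 10 from 127776386 to 127792697), a member of a cluster of retinol and hydroxysteroid dehydrogenase genes, rose by 1.08 (standard error 0.17, adjusted p = 0.0222). Its CPM was 6.86, 10.7, 12.2, 11.1 and 10.4 in the Sham Chow mice and 21.1, 19.0, 23.0, 26.8 and 18.3 in the RYGB Chow mice. Every RYGB Chow mouse lay at least 6 CPM above the highest Sham Chow mouse. Genes of this cluster are similar in sequence and how the authors' counting treated reads that match several of them is not given in the sources used here, so the share of reads that belongs to *Rdh9* itself is uncertain.

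The other called genes were expressed at lower or middle levels. *Hk3*, a hexokinase gene of myeloid cells, rose by 1.43 (standard error 0.25, adjusted p = 0.0450), from 1.14 to 2.90 CPM in Sham Chow to between 3.55 and 9.01 in RYGB Chow, where RYGB Chow 3 was the highest. *Nckap1l*, which encodes the HEM1 subunit of the actin-regulating WAVE complex of blood cells, rose by 1.01 (standard error 0.19, adjusted p = 0.0474). It measured 6.81, 4.30, 3.98, 3.14 and 3.33 CPM in Sham Chow and 10.7, 6.68, 10.2, 8.46 and 7.70 in RYGB Chow, so that Sham Chow 1 and RYGB Chow 2 overlapped (exact permutation test, two-sided p = 0.0159). *Lhx6*, a LIM homeobox transcription factor gene, rose by 1.05 (standard error 0.19, adjusted p = 0.0450) and *Dmpk*, the myotonic dystrophy protein kinase gene, by 0.79 (standard error 0.15, adjusted p = 0.0474). In both, all RYGB Chow mice lay above all Sham Chow mice. In the fit of all mice each of these 4 genes had a larger fold change on chow than on HFD, where the values were 0.00, -0.14, 0.15 and -0.03 for *Hk3*, *Nckap1l*, *Lhx6* and *Dmpk*, and the interaction passed for each (adjusted p = 0.0217, 0.0150, 0.0466 and 0.0246). For *Lhx6* it passed in 2 of the 10 fits that left out 1 chow mouse, with an adjusted p of up to 0.0823, and for the other genes in all 10. The 4 genes were chosen for a small p on chow, which enters the interaction. Of the genes at an unadjusted p under 0.05 on chow, 11.5% passed the interaction, against 5.06% of all genes. The summed level of 12 macrophage markers was 149 to 398 CPM in Sham Chow and 299.6 to 720.1 CPM in RYGB Chow, and its part in the values of the myeloid genes *Hk3* and *Nckap1l* was not tested.

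*Asrgl1* was the gene that fell. It encodes an asparaginase of the liver, and its CPM was 11.5, 12.7, 11.6, 12.5 and 11.4 in Sham Chow and 9.75, 8.13, 8.08, 7.04 and 7.47 in RYGB Chow. The Sham Chow values had an SD of 0.619 and the RYGB Chow values one of 1.03, and the highest RYGB Chow mouse lay below the lowest Sham Chow mouse (-0.56, standard error 0.10, adjusted p = 0.0474). Its lower level after RYGB was shared with HFD, where the fold change was -0.74.

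**Figure D2:**
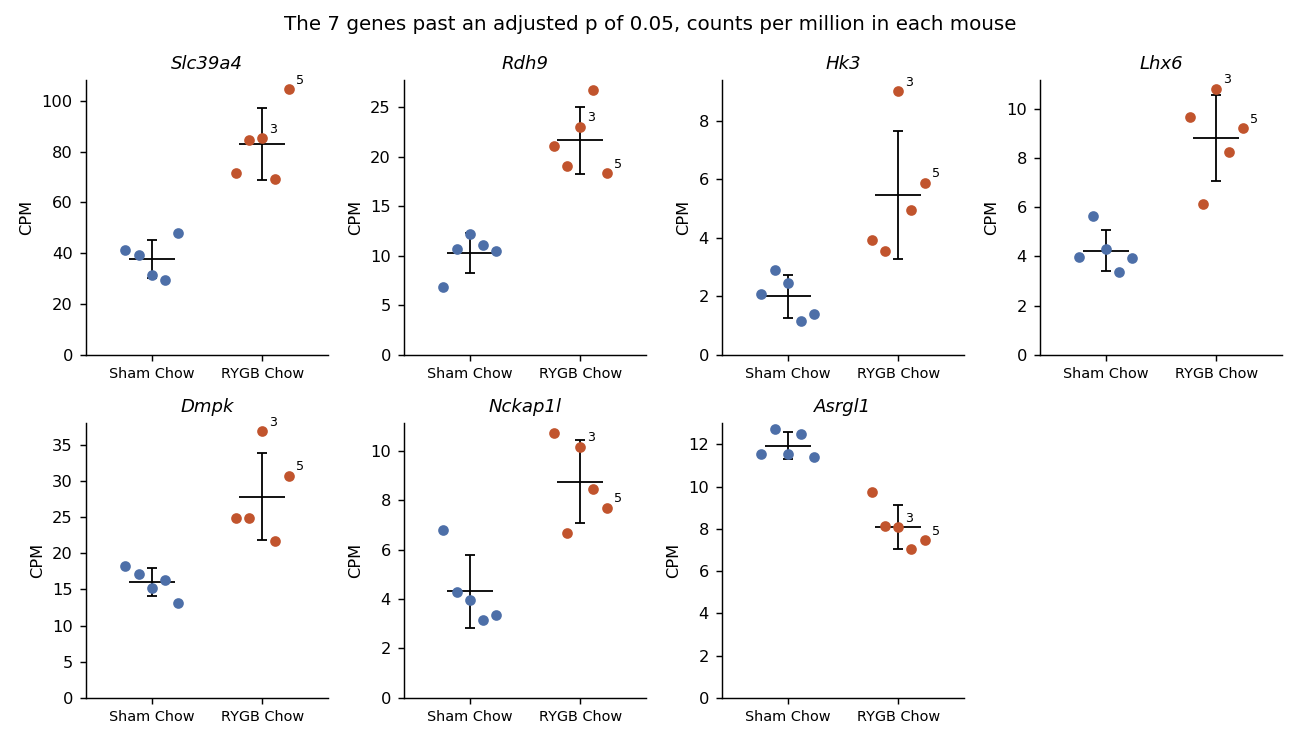
CPM of the 7 genes past an adjusted p of 0.05 in each Sham Chow (blue) and RYGB Chow (orange) mouse, with the group mean and SD as black bars and RYGB Chow 3 and 5 marked by number. In 6 of the 7 genes no mouse of one group reaches the other, and in *Nckap1l* 1 mouse of each group overlaps.

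The 7 calls rest on all 20 mice sharing one estimate of the spread between mice. In a model of only the 10 chow mice 0 genes passed, with 940 at an unadjusted p under 0.05, *Slc39a4* at an adjusted p of 0.0512 and *Rdh9* at 0.0869. DESeq2 called 66 genes higher (0.548% of the genes to which it gave an adjusted p) and 26 lower (0.216%), and limma-voom called 2 and 1. All 7 genes were among the calls of DESeq2. Without Sham Chow 3 or Sham Chow 4 edgeR called 0 genes, with 1193 and 1100 at an unadjusted p under 0.05, and without Sham Chow 1 or Sham Chow 5 it called 1. Of the 7 genes, *Slc39a4* and *Rdh9* also passed without RYGB Chow 3, and these 2 with *Hk3*, *Nckap1l* and *Lhx6* passed without RYGB Chow 5.

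Next to the called genes stood others in which all 5 RYGB Chow mice were higher. *Fcna*, the gene of a macrophage ficolin that binds sugars on microbes, measured 27.9, 24.8, 20.4, 17.1 and 22.2 CPM in Sham Chow and 40.2, 35.2, 52.2, 44.6 and 33.3 in RYGB Chow (0.87, adjusted p = 0.0713). *Cyba*, the membrane subunit of the phagocyte NADPH oxidase, ran from 4.35 to 6.23 CPM in Sham Chow and from 6.25 to 13 in RYGB Chow (0.85, adjusted p = 0.0713). *Dusp6*, a phosphatase that switches off ERK kinases, ran from 18.0 to 37.7 CPM in Sham Chow and from 38.1 to 54.3 in RYGB Chow (0.96, adjusted p = 0.0713). Sham Chow 2 alone brought *Dusp6* near the RYGB Chow range, and without that mouse the gene had a fold change of 1.20 and passed (adjusted p = 0.00705). *Clca3a1*, which encodes a chloride channel regulator, and the interferon-inducible GTPase gene *Gbp9* had fold changes of 1.01 and 0.81 (adjusted p = 0.0713 and 0.0955).

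Among the genes with all 5 RYGB Chow mice below Sham Chow, several differed by small steps. *Scrn3*, a secernin gene, ranged from 66.0 to 76.6 CPM in Sham Chow and from 57.0 to 63.2 in RYGB Chow, which fitted a log2 difference of -0.28 with an error of 0.058 (adjusted p = 0.0793). *Anp32a*, *Ugt2a3*, *Ssbp3*, *Gas2* and *Mrpl32* had fold changes between -0.43 and -0.34 and *Spout1* had -0.40. These genes encode a nuclear phosphoprotein, a glucuronosyltransferase, a transcription cofactor, a cytoskeletal protein, a mitochondrial ribosomal protein and an RNA methyltransferase. *Spout1* was the most even of them in RYGB Chow, at 10.6, 10.5, 10.4, 10.4 and 9.79 CPM against 12.5 to 15.9 in Sham Chow. *Psd*, an exchange factor for small GTPases, was the only one of this set near the limit of detection, at 1.26 to 2.06 CPM in Sham Chow and 0.587 to 1.13 in RYGB Chow.

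Iron handling showed the largest single difference in fitted level among the genes named as lower. *Hamp* (ENSMUSG00000050440, chromosome 7 from 30942368 to 30944032, minus strand) measured 721, 736, 1102, 625 and 964 CPM in the Sham Chow mice. In RYGB Chow mice 1, 2, 4 and 5 it was at 3.05, 4.90, 1.08 and 10.8 CPM, and in RYGB Chow 3 at 447. The groups did not overlap, but RYGB Chow 3 lay far closer to the Sham Chow mice than to its 4 group mates. With all mice the fitted difference was -3.15 on the log2 scale with an error of 1.02, and it did not pass (adjusted p = 0.268). Without RYGB Chow 3 it was -7.40 (adjusted p = 1.47e-08), and without RYGB Chow 5 it was -2.86 (adjusted p = 0.220). limma-voom, which works on the mean of log values, gave -6.47 (adjusted p = 0.00104).

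The promoters of *Hamp* and its neighbour *Hamp2* are printed here because both genes were lower in RYGB Chow and diverged in a single mouse. The 250 bases before each RefSeq start site on GRCm38.p6 are given 5′ to 3′ on the minus strand, *Hamp* at chr7:30944030-30944279 and *Hamp2* at chr7:30924182-30924431. Capitals mark the letters GGCGCC, the core of known BMP response elements, and TTCNNNGAA, the letters of STAT binding sites.
Hamp: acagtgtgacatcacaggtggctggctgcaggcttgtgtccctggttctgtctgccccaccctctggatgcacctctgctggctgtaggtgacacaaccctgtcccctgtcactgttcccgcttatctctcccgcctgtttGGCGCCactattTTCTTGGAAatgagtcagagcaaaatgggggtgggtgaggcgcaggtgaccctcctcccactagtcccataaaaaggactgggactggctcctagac
Hamp2: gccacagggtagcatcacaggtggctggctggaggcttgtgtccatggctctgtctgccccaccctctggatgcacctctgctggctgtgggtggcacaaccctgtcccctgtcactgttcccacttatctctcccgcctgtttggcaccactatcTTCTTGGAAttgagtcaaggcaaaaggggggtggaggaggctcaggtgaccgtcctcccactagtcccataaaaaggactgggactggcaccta
Of the 247 bases that align without gaps, 227 (91.9%) are identical. The *Hamp* window holds both motifs, 109 and 97 bases before the start site, and the *Hamp2* window holds TTCNNNGAA but not GGCGCC. The windows of *Id3*, *Atoh8*, *Bmp6* and *Rdh9* were also read and hold neither motif. That of *Tfrc*, which was higher in RYGB Chow, holds GGCGCC 89 bases before its start site. Among 32851 RefSeq promoter windows of the same length, 9.59% hold GGCGCC and 7.02% hold TTCNNNGAA. Both motifs read the same on either strand and did not overlap here. These matches describe letters in a window and were not tested for any factor.

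*Hamp2* measured 5.99, 8.75, 7.26, 19.99 and 13.5 CPM in Sham Chow and 4.58, 1.51, 0.494, 0.587 and 4.08 in RYGB Chow. Again no mouse overlapped (exact permutation test, two-sided p = 0.00794), and the fitted log2 difference was -2.30 with an error of 0.54 (adjusted p = 0.148). RYGB Chow 3, where *Hamp* was near the sham range, had the lowest *Hamp2* of all 10 mice, with 9 raw counts. Reads shared by the near-identical genes may be split or dropped by the authors' counting, so the level of *Hamp2* is uncertain.

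Genes that respond to BMP and SMAD signals were lower in the same 4 mice as *Hamp*. *Id1*, an inhibitor of DNA-binding transcription factors, measured 2.94, 2.64, 1.91 and 2.6 CPM in RYGB Chow mice 1, 2, 4 and 5 and 8.19 in RYGB Chow 3, against 7.21 to 13 in Sham Chow. Its relative *Id3* measured 18.4 to 21.3 CPM in those 4 mice and 69.9 in RYGB Chow 3, against 28.6 to 71.1 in Sham Chow. *Smad7*, the inhibitory SMAD, measured 5.55 to 8.71 CPM in the 4 mice and 17.4 in RYGB Chow 3, against 11.7 to 18.1 in Sham Chow. *Atoh8*, a transcription factor that acts on *Hamp*, measured 8.21 to 11.4 CPM in the 4 mice and 35.3 in RYGB Chow 3, above the Sham Chow range of 14.1 to 27.3. In all 4 genes, then, RYGB Chow 3 lay inside or above the sham range and the other RYGB Chow mice lay below it.

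With all mice none of the 4 passed, at fold changes of -1.43 for *Id1*, -0.90 for *Id3*, -0.71 for *Smad7* and -0.46 for *Atoh8* and adjusted p between 0.148 and 0.643. Without RYGB Chow 3 all 4 fell, by 1.96, 1.48, 1.07 and 1.11 on the log2 scale (adjusted p = 0.00294, 0.00294, 0.00294 and 0.0191). In that fit 9 genes passed, 2 higher (0.0163% of those tested) and 7 lower (0.0571%), and *Hamp*, *Id1*, *Id3*, *Smad7* and *Atoh8* were 5 of the 7. *Id3*, *Smad7* and *Atoh8* were singled out after their values were seen, because RYGB Chow 3 stood out in them. Leaving out that mouse was therefore bound to enlarge their differences. Their adjusted p in that fit, and their place among the 7 lower genes, are no independent support for a pattern. *Bmp6* encodes the ligand itself and was also singled out after its values were seen. It measured 5.52 to 9.85 CPM in Sham Chow and 5.50, 3.55, 5.71, 5.57 and 1.02 in RYGB Chow (-0.82, adjusted p = 0.353). RYGB Chow 3 was not apart from its group in *Bmp6*.

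The receptor that takes up iron-loaded transferrin moved the opposite way. *Tfrc* measured 17.5, 12.6, 16, 10.4 and 19.2 CPM in Sham Chow and 51.7, 46.6, 39.2, 48.4 and 20.7 in RYGB Chow. RYGB Chow 5 was the one mouse close to the sham range, and RYGB Chow 3 was among the high ones. The fold change of 1.44 (adjusted p = 0.0970) became 1.61 without RYGB Chow 5, where *Tfrc* passed (adjusted p = 0.0421). *Slc11a2*, the divalent metal transporter DMT1, measured 28.1 to 38.9 CPM in Sham Chow and 46.4, 50.04, 49.4, 53.4 and 37.4 in RYGB Chow (0.52, adjusted p = 0.173). In *Slc11a2* RYGB Chow 5 lay inside the Sham Chow range. *Lcn2*, a siderophore-binding protein that is also an acute-phase product, measured 0.880 to 2.46 CPM in Sham Chow, 3.05 to 4.01 in RYGB Chow mice 1 to 4 and 12.6 in RYGB Chow 5. Of the 30 iron handling genes tested, 5 were higher and 6 lower at an unadjusted p under 0.05, 0 passed after adjustment, and their median fold change was -0.08 against 0.00 over all genes.

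**Figure D3:**
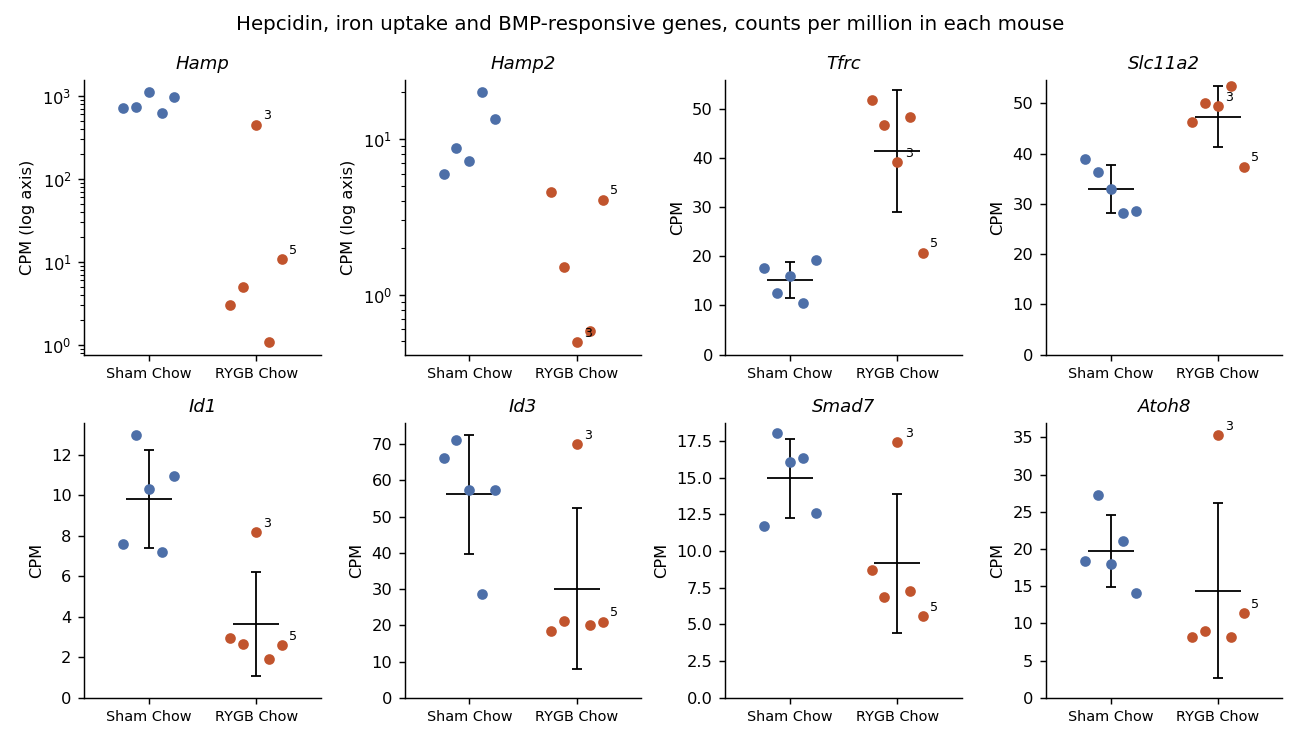
CPM of iron uptake, hepcidin and BMP-responsive genes in each Sham Chow (blue) and RYGB Chow (orange) mouse, on a log axis for *Hamp* and *Hamp2* and with mean and SD on linear axes for the others. RYGB Chow 3 sits with the Sham Chow mice in *Hamp*, *Id1*, *Id3*, *Smad7* and *Atoh8* but not in *Hamp2*, *Tfrc* or *Slc11a2*. RYGB Chow 5 sits close to the Sham Chow mice in *Tfrc* and inside their range in *Slc11a2*.

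On HFD the log2 fold change of surgery was -10.66 for *Hamp* and -12.22 for *Hamp2*, and the interaction passed for both (adjusted p = 0.0283 and 0.00295). The size for *Hamp* rested on RYGB Chow 3, since the value on HFD minus that on chow was -7.51 with that mouse and -3.27 without it (interaction adjusted p = 0.0200). For *Hamp2*, which was below 1 CPM in some RYGB Chow mice, it was -9.93 and -10.19, sizes that rest on few reads. For *Tfrc*, *Id1* and *Slc11a2* the values on chow and HFD were 1.44 and 2.30, -1.43 and -1.49, and 0.52 and 0.77, and no interaction passed (adjusted p = 0.281, 0.958 and 0.501).

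Macrophage markers were the list with the highest median among those with at least 3 genes tested. All 12 had a fitted level above that of Sham Chow, 11 were higher at an unadjusted p under 0.05 and 0 after adjustment, and their median fold change was 0.86. Across all genes tested, 6143 of 12289 (50%) lay above 0. *Clec4f*, a lectin found on Kupffer cells alone, measured 90.9, 76.5, 59.9, 46.0 and 43.5 CPM in Sham Chow and 99.7, 81.9, 164, 116 and 100.4 in RYGB Chow (0.82, standard error 0.20, adjusted p = 0.148). *Csf1r*, the receptor for the growth factor on which macrophages depend, measured 46.0, 37.7, 34.2, 19.6 and 17.3 CPM in Sham Chow and 54.9, 40.5, 89.7, 57.9 and 45.1 in RYGB Chow (0.89, standard error 0.25, adjusted p = 0.197). In both genes RYGB Chow 3 was the highest mouse and Sham Chow 4 and 5 were the lowest, and Sham Chow 1 lay above RYGB Chow 2 in both and above RYGB Chow 5 in *Csf1r*.

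The 10 other markers gave a range of differences. *Cd5l*, a secreted scavenger receptor, and the lysosomal protein gene *Cd68* had fold changes of 0.90 and 0.79, and the haemoglobin scavenger receptor gene *Cd163* had 1.04 with all 5 RYGB Chow mice above Sham Chow. Fold changes of the other markers, *Vsig4*, *Adgre1*, *Timd4*, *Lyz2*, *Marco*, *Gpnmb* and *Trem2*, ran from 0.20 for *Trem2* to 2.28 for *Gpnmb*. The summed level of the 12, given with *Hk3*, overlapped between the groups. Without RYGB Chow 3 the median was 0.65 and 7 markers were higher at an unadjusted p under 0.05, where 3.9% of all genes were higher and 3.56% lower. Without both RYGB Chow 3 and 5 it was 0.59 with 6 markers, in a fit where 4.3% of all genes were higher and 4.94% lower before adjustment and 0.0245% and 0.0572% after it. With each chow mouse left out in turn the median lay between 0.65 and 1.10. DESeq2 called 3 of the 12 higher. In whole liver, more cells of a type and more RNA per cell cannot be told apart.

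Complement C1q and properdin, products of the same cells, were higher as well. *C1qa*, *C1qb* and *C1qc*, the 3 chains of C1q, had fold changes of 0.81, 0.75 and 0.83 (adjusted p = 0.194, 0.148 and 0.159), and *Cfp*, which encodes properdin, had 0.91 (adjusted p = 0.148). *C1qa* measured 31.2, 31.2, 30.6, 19.9 and 16 CPM in Sham Chow and 34.8, 31.2, 59.4, 45.2 and 55.7 in RYGB Chow, with no overlap by a small margin. *Cfp* ran from 9.76 to 17.8 CPM in Sham Chow and from 18.2 to 39.6 in RYGB Chow, also without overlap. These were the only 4 of the 25 complement genes tested with an unadjusted p under 0.05, and DESeq2 called all 4 (adjusted p between 0.0193 and 0.0470). The median of the whole list, most of which is made by hepatocytes, was 0.08.

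On HFD the median surgery fold change of the macrophage list was 0.09, and 0 of the 12 markers passed after adjustment in either direction. The difference between the diets passed in 1 of the 12 markers (adjusted p = 0.0440 for *Gpnmb*, at 2.28 on chow and -1.28 on HFD, and up to 0.0828 with a chow mouse left out), and it had an unadjusted p under 0.05 in 7 of them. In the series as a whole 622 genes (5.06%) had an interaction with an adjusted p under 0.05 and 2552 (20.8%) one with an unadjusted p under 0.05.

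**Figure D4:**
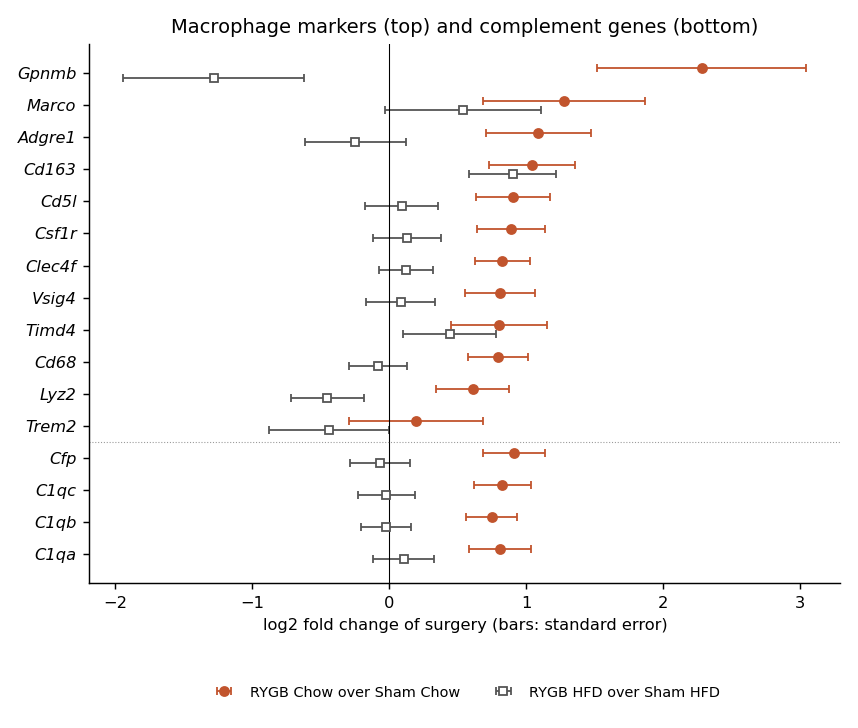
Log2 fold change of surgery with its standard error for the 12 macrophage markers and for *C1qa*, *C1qb*, *C1qc* and *Cfp*, on chow (orange circles) and on HFD (open squares). All 16 values on chow lie above 0, while those on HFD lie on both sides of it.

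RYGB Chow 5 was the highest mouse over the MHC class II and interferon lists. The MHC class II list had a median of 0.47, with *Ctss*, *H2-DMa* and *H2-DMb1*, which process and load antigen, higher at an unadjusted p under 0.05 among 9 genes tested. Without RYGB Chow 5 its median was -0.01, and 2 genes were higher where 6.95% of all genes were higher and 7.57% lower at an unadjusted p under 0.05. The interferon list had a median of 0.39 with 4 genes higher (*Ifit2*, *Usp18*, *Igtp* and *Oas1a*) and 1 lower of 24, and a median of 0.01 without RYGB Chow 5. *Igtp* in particular had a fold change of 1.10 with RYGB Chow 5 and -0.12 without it. Of 8 neutrophil markers, 6 including *S100a8*, *S100a9* and *Ly6g* did not reach the filter, and the others were *Lcn2* and *Csf3r*, in both of which all RYGB Chow mice lay above all Sham Chow mice. *Csf3r*, the G-CSF receptor gene, ran from 1.29 to 1.99 CPM in Sham Chow and from 2.56 to 4.23 in RYGB Chow (0.95, adjusted p = 0.148). No Sham Chow mouse reached 2 CPM in it and every RYGB Chow mouse did, so the group in which it was high sufficed to pass the filter. The 6 markers below the filter were not compared, so the separation in *Lcn2* and *Csf3r* is no result about neutrophil markers.

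Of 26 extracellular matrix genes tested, 3 were higher and 1 lower at an unadjusted p under 0.05, where 5.7% of all genes were higher and 5.09% lower. *Lgals3*, the galectin-3 gene of activated macrophages, ran from 1.45 to 3.48 CPM in Sham Chow and from 3.55 to 9.62 in RYGB Chow (0.98, adjusted p = 0.168), and on HFD it had -0.58 (interaction adjusted p = 0.0139). *Col4a2*, a basement membrane collagen, had 0.59, *Col14a1*, a fibril-associated collagen, 0.39, and *Dpt*, dermatopontin, -1.06 (adjusted p between 0.222 and 0.285). *Dcn*, decorin of stellate cells and fibroblasts, measured 76.6 to 118 CPM in Sham Chow and 114 to 127 in RYGB Chow (0.32, adjusted p = 0.257), while *Lum*, lumican, and *Reln*, reelin, had 0.43 and 0.48. These 3 were the genes at an unadjusted p under 0.05 among 10 stellate cell and fibroblast markers. For *Dcn* and *Col14a1* surgery on HFD went the other way, to -0.30 and -0.64, and the interaction passed (adjusted p = 0.0154 and 0.00388). The 9 sinusoidal endothelial markers had a median of 0.29 with 0 at an unadjusted p under 0.05. RYGB Chow 5 was the lowest mouse over them, with a median deviation of -1.11 on the log2 scale, and it was also the lowest in *Bmp6*, which sinusoidal endothelial cells express.

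Cell cycle genes were higher in part. *Ccnd1*, cyclin D1, ran from 6.07 to 20.04 CPM in Sham Chow and was at 13, 15.6, 45.6, 21.4 and 29.3 in RYGB Chow (1.16, adjusted p = 0.268). *Mcm3*, *Top2a* and *Mki67*, which act in DNA replication and mitosis and mark dividing cells, had fold changes of 0.44, 0.88 and 0.67. Of the 15 genes tested, 4 were higher and 1 lower at an unadjusted p under 0.05, and the median was 0.31.

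Acute-phase genes included 1 abundant gene that was higher in all RYGB Chow mice and others, such as *Lcn2* and *Saa2*, that were highest in RYGB Chow 5. *Itih4*, an inter-alpha-trypsin inhibitor chain, measured 1457, 1326, 1480, 1295 and 1332 CPM in Sham Chow and 1660, 1708, 1900, 1566 and 1676 in RYGB Chow (0.30, adjusted p = 0.251). *Saa2*, a serum amyloid A gene, measured 9.75, 5.92, 11.6, 10.8 and 38.3 CPM in RYGB Chow against 4.07 to 11.7 in Sham Chow, and its fold change of 1.26 was 0.59 without RYGB Chow 5. Near-identical *Saa1* shares sequence with it, so the count of *Saa2* is uncertain. On HFD *Saa2* had -1.37, and the interaction passed (adjusted p = 0.0185). *Socs3*, a feedback inhibitor of STAT3, had 0.68. Of the 25 genes tested, 8 were higher and 0 lower at an unadjusted p under 0.05. Without RYGB Chow 5, 2 were higher, in a fit where 6.95% of all genes were higher. Among 23 coagulation genes, *Pros1*, protein S, was the only one at an unadjusted p under 0.05 (0.27).

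The 31 genes tested of the respiratory chain list had a median fold change of -0.15, 0 of them lay above 0, and 6 were lower at an unadjusted p under 0.05. Over all genes 50% lay above 0, and genes of a list are not independent. By mouse, the median deviation of the list ran from -0.038 to 0.235 in Sham Chow and from -0.361 to 0.154 in RYGB Chow. *Ndufa5* and *Ndufa4*, subunits associated with complexes I and IV, had -0.38 and -0.30, and *Cox6c* of complex IV had -0.28. *Sod2*, the mitochondrial superoxide dismutase, which the list holds though it is not a subunit of the chain, had -0.22. *Cox6c* measured 183, 187, 210, 235 and 223 CPM in Sham Chow and 166, 170, 132, 178 and 208 in RYGB Chow. RYGB Chow 3 was lowest and RYGB Chow 5 lay inside the sham range. Without RYGB Chow 5 the number of lower genes was 15, in a fit where 7.57% of all genes were lower. Without RYGB Chow 3 it was 5, where 3.56% of all genes were lower. The medians in these fits were -0.22 and -0.08. None of the 31 passed after adjustment in any of these fits.

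Amino acid catabolism had 8 genes lower and 1 higher of 30 at an unadjusted p under 0.05, with 3 of 30 above 0 and a median of -0.24. *Gls2*, the liver glutaminase, measured 650, 357, 520, 450 and 547 CPM in Sham Chow and 382, 410, 191, 370 and 372 in RYGB Chow (-0.55, adjusted p = 0.227). *Hal*, histidine ammonia-lyase, had -0.41. *Glul*, glutamine synthetase of the hepatocytes around the central vein, was the one higher gene, at 631 to 890 CPM in Sham Chow and 852 to 1100 in RYGB Chow (0.33, adjusted p = 0.323). It had -0.47 on HFD, and the interaction passed (adjusted p = 0.0124). *Slc1a2*, a glutamate transporter of the same hepatocytes, had 0.38 on chow. RYGB Chow 3 was the lowest mouse over this list. Without it 3 genes were lower at an unadjusted p under 0.05, where 3.56% of all genes were lower, and the median was -0.13.

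Lipoprotein genes included 6 lower and 1 higher of 27. *Apoc3*, an inhibitor of triglyceride clearance, measured 1387, 1322, 1610, 1599 and 1821 CPM in Sham Chow and 1053, 1081, 801, 1078 and 1325 in RYGB Chow, where RYGB Chow 5 alone reached the sham range by 3 CPM. It fell by 0.62 on the log2 scale without that mouse (adjusted p = 0.0306), against -0.54 with it (adjusted p = 0.0713). *Apoa5*, an activator of triglyceride clearance, measured 570 to 765 CPM in 4 RYGB Chow mice and 1332 in RYGB Chow 3, against 914 to 1383 in Sham Chow, the pattern seen in *Hamp* and *Id1*. Without RYGB Chow 3 it fell by 0.79 (adjusted p = 0.0191). *Pltp*, the phospholipid transfer protein, had -0.84 with widely spread Sham Chow values of 26.7 to 146 CPM.

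Sterol, fat and glucose lists gave few differences. Of 24 cholesterol synthesis genes, 1 was lower at an unadjusted p under 0.05 (*Ebp*, -0.28). On HFD the list had a median of 0.68 with 12 genes higher past adjustment, where 8.54% of all genes were higher. On chow its median was -0.19 with 0 genes past adjustment. The interaction passed in 5 of the 24, against 5.06% of all genes. In fatty acid synthesis, with 2 of 15 genes at an unadjusted p under 0.05, *Acaca*, acetyl-CoA carboxylase, and *Mlxipl*, the glucose-sensing factor ChREBP, had 0.39 and 0.24. *Mogat1*, which makes diacylglycerol for fat storage, had 0.833 to 1.86 CPM in Sham Chow and 0 to 0.654 in RYGB Chow, with no overlap (-1.98, adjusted p = 0.285). It was the 1 gene of 24 in triglyceride synthesis at an unadjusted p under 0.05. *Ucp2*, an uncoupling protein, was the one gene of the fatty acid oxidation list at an unadjusted p under 0.05 (0.40 on chow, -0.80 on HFD, interaction adjusted p = 0.00677). Of 24 glucose and glycogen genes and of 19 clock genes, 0 had an unadjusted p under 0.05. From 16 hypoxia targets, the prolyl hydroxylase gene *P4ha1* had 0.40, the kinase gene *Pdk1* -0.32 and the mitophagy receptor gene *Bnip3* -0.22. Among 21 zonation genes 3 were higher and 2 lower, and among 20 endoplasmic reticulum stress genes 1 was higher and 0 lower. Of 6 red cell markers tested, *Alas2*, the haem synthesis gene of red cell precursors, was the 1 lower gene (-0.42), and none of 4 cholangiocyte markers had an unadjusted p under 0.05.

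Of 26 cytochrome P450 and drug response genes 2 were higher and 1 lower at an unadjusted p under 0.05, of 22 bile acid genes 2 were higher and 0 lower, and of 27 glutathione transferase and NRF2 genes 1 was higher and 3 lower. *Cyp2b10*, the classic target of the receptor CAR, measured 16.4, 3.93, 6.11, 12.1 and 13.4 CPM in Sham Chow and 2.83, 2.75, 0.0549, 0.782 and 4.08 in RYGB Chow. Only RYGB Chow 5 and Sham Chow 2 overlapped (-2.31, standard error 0.52, adjusted p = 0.111). *Cyp2a4*, a steroid hydroxylase that is higher in female mice, measured 0.0966 to 1.57 CPM in Sham Chow and 2.61, 0.323, 13.2, 1.91 and 3.06 in RYGB Chow (2.94, adjusted p = 0.168). Without RYGB Chow 3 its fold change was 1.85. On HFD it had -5.70, and the interaction passed (adjusted p = 1.59e-04). *Cyp2a4* has a near-identical neighbour, *Cyp2a5*, so its counts are uncertain. *Cyp3a59* had 0.75 on chow and -0.93 on HFD (interaction adjusted p = 0.0136), and the glutathione transferase gene *Gstm3* had 0.63 and -2.39 (interaction adjusted p = 3.69e-04).

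Other glutathione transferase genes, *Gstk1*, *Gstz1* and *Gsta2*, had -0.34, -0.26 and -0.54 on chow. *Nr0b2*, the bile acid-induced repressor SHP, measured 26.5, 25.2, 22.1, 11 and 17.2 CPM in Sham Chow and 40.9, 26.9, 43.0, 22.5 and 39.2 in RYGB Chow (0.75, adjusted p = 0.239). *Cyp7a1*, the rate-limiting enzyme of bile acid synthesis, ran from 95.7 to 337 CPM in Sham Chow and from 84.6 to 145 in RYGB Chow, a difference within the spread of the sham mice (-0.79, adjusted p = 0.542). *Abcc4*, a bile acid and nucleotide exporter of the basolateral membrane, had 0.57 on chow and -0.91 on HFD (interaction adjusted p = 0.0182).

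At an unadjusted p under 0.05, 6 of 21 secreted hormone genes were higher and 1 lower, and of 22 growth hormone and IGF genes 2 were higher and 3 lower. *Igf1*, the growth hormone target that hepatocytes supply to the blood, measured 661, 719, 717, 587 and 744 CPM in Sham Chow and 614, 619.95, 504, 525 and 479.6 in RYGB Chow (-0.32, standard error 0.11, adjusted p = 0.271). On HFD its fold change was 0.44, and the test of the difference passed (interaction adjusted p = 0.00597). *Igfbp2*, an IGF-binding protein that rises in fasting and low insulin, measured 787, 359, 595, 691 and 588 CPM in Sham Chow and 675, 1262, 943, 677 and 1111 in RYGB Chow, so that 2 RYGB Chow mice lay inside the sham range (0.63, adjusted p = 0.308). Its fold change on HFD was 2.78 (interaction adjusted p = 9.15e-04). *Igfbp1*, another binding protein induced by fasting, had 0.99, and *Igfbp5* had -1.08. *Fgl1*, a hepatocyte-secreted fibrinogen relative, measured 120 to 189 CPM in Sham Chow and 145 to 314 in RYGB Chow (0.64, adjusted p = 0.245). *Fgf21*, a fasting and stress hormone, was high in 1 mouse of each group, at 29.7 CPM in Sham Chow 2 and 74.2 in RYGB Chow 3, against 1.57 to 7.59 in the other 8. Its fold change was 1.27 with RYGB Chow 3 and -0.56 without it. *Nupr1*, a stress-induced ATF4 target, followed the same pair of mice, at 1.5 CPM in Sham Chow 2 and 5.49 in RYGB Chow 3 against 0.214 to 1.03 elsewhere.

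**Figure D5:**
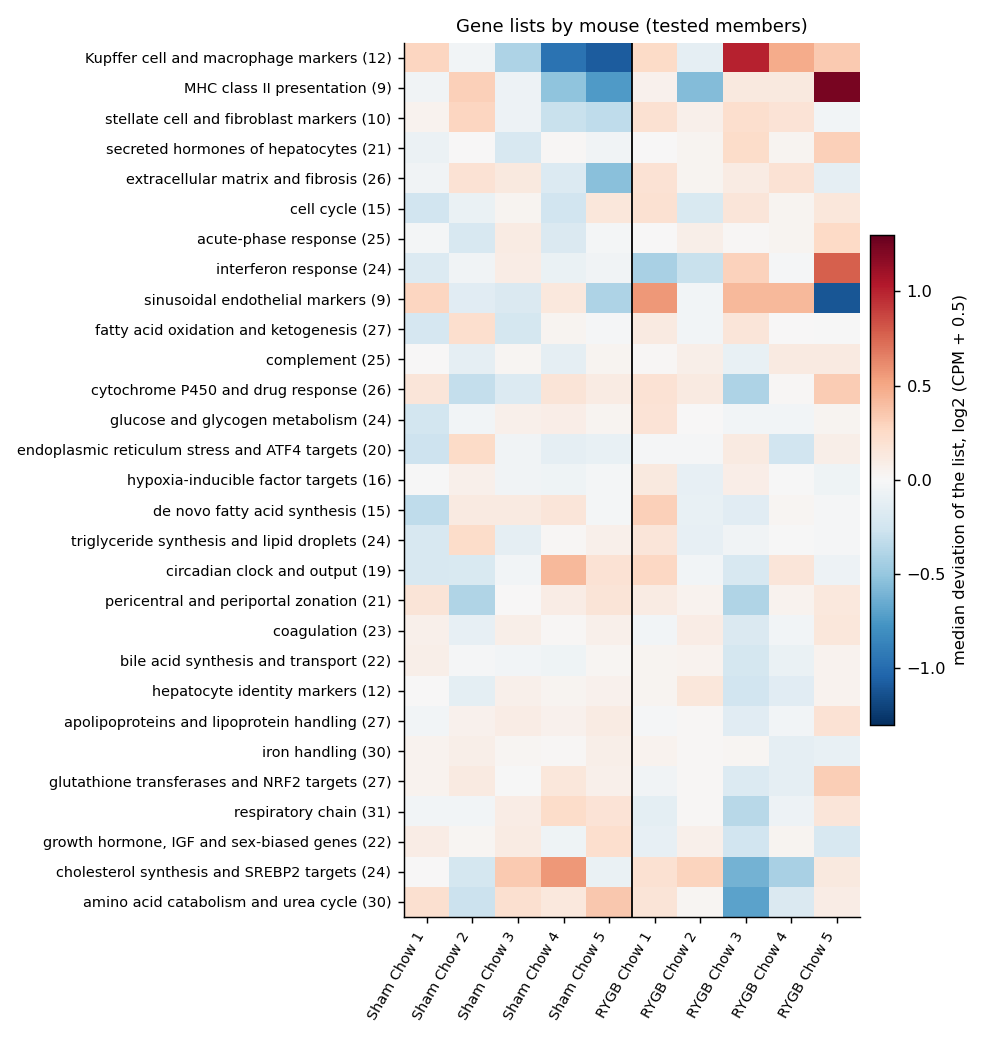
Each cell is the median, over the tested members of a gene list (their number in brackets), of a mouse's log2(CPM + 0.5) minus the mean of the 10 chow mice, for lists with at least 9 members tested. The macrophage row is lowest in Sham Chow 4 and 5 and highest in RYGB Chow 3 at 1.00, the interferon and MHC class II rows are highest in RYGB Chow 5, and amino acid catabolism is lowest in RYGB Chow 3 at -0.70.

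Of the chow mice left out in turn, RYGB Chow 5 gave the largest change in the number of called genes, to 9 higher (0.0733%) and 6 lower (0.0489%). The 10 named genes with the smallest p in that fit included *Chd3*, a chromatin remodeller, which rose by 0.46 (adjusted p = 0.0296) and measured 190 to 210 CPM in the other 4 RYGB Chow mice against 131 to 156 in Sham Chow and 144 in RYGB Chow 5. *S100a1*, a calcium-binding protein gene, fell by 0.47 and *Anp32a* fell by 0.53 (adjusted p = 0.0421 for both). *Rida*, an enzyme that clears reactive imines, fell by 0.37 (adjusted p = 0.0421). In *S100a1*, *Rida* and *Chd3* RYGB Chow 5 was the RYGB Chow mouse nearest to or inside the Sham Chow range. With RYGB Chow 5 in the fit their fold changes were -0.35, -0.29 and 0.38 and none passed (adjusted p between 0.148 and 0.236).

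Set beside surgery on HFD, a contrast of 10 other mice, surgery on chow gave fewer called genes. Body weight, higher in Sham HFD than in the other groups, cannot be told apart from diet in that difference. On HFD 1050 genes rose (8.54%) and 971 fell (7.9%) after RYGB. Across the 12289 genes the fold changes on the 2 diets had a Pearson's r of 0.087 and a Spearman's rho of 0.082, as a description across genes, which are not independent. Among the 700 genes higher on chow at an unadjusted p under 0.05, 51.9% were also above 0 on HFD, where 51.4% of all genes tested were above 0. Among the 625 lower genes 68.5% were also below 0 there, against 48.6% of all genes tested. Over all genes 54.3% had the same sign on both diets.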

How the data were processed

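Liver RNA of 20 mice was measured, 5 in each of 4 groups taken from the labels, and the 10 chow mice are compared here. The authors trimmed paired reads with Trimmomatic 0.36, aligned them to mm10 with HISAT2 2.1.0 and counted them per gene with featureCounts 1.5.0-p3, and they deposited 1 table of raw counts, the unit used here. The annotation release, the strand setting and the treatment of reads with several matches are not given in the sources used here. Genes reaching 2 CPM in 3 or more of the 20 mice were kept, and 0 columns were left out.

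Counts were scaled by TMM and fitted with edgeR 4.0.16 (R 4.3.3) in 1 quasi-likelihood model of the 4 groups, with Benjamini-Hochberg adjustment over all genes kept. Fold changes are log2 values of RYGB over sham, and the interaction is the value on HFD minus that on chow. Single genes were also tested by an exact two-sided permutation test on log2(CPM + 0.5), over all 252 splits. The script was tested on simulated data. Alternatives were DESeq2 1.42.0, limma-voom 3.58.1, other scalings and filters, the chow mice alone, a robust spread, a replicate block and leaving out each mouse. Leaving out RYGB Chow 3 and 5 together was added after the data were seen. The labels do not say which libraries shared a cage or a day, so the tests take the mice as independent, which could not be checked. The model estimates the spread between mice over all 4 groups.

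The comparison and all 34 gene lists were chosen with earlier results of these data known. Genes were named by rule. These were all genes past an adjusted p of 0.05, the 10 higher and 10 lower genes with the smallest p whose groups did not overlap, up to 4 genes per list with the smallest p, and 10 genes from the fit without the chow mouse whose omission changed the calls most. Of the list genes, those at an unadjusted p under 0.05 are printed, with *Hamp*, *Tfrc*, *Igfbp2*, *Cyp7a1*, *Fgf21*, *Cyp2b10* and *Mogat1* in any case. The macrophage list is given whole, and predicted genes are counted but not named. A gene that this rule would name is not reported here. *Id3*, *Smad7*, *Atoh8*, *Bmp6*, *Kdr*, *H2-Aa*, *Psat1* and *Phgdh* were added after their values were seen. Gene positions and promoters are on GRCm38, the build of mm10, and promoters come from RefSeq. Promoters were read for *Hamp*, *Hamp2*, *Id3*, *Atoh8*, *Bmp6*, *Tfrc* and *Rdh9*, and those of *Hamp* and *Hamp2* are printed. Those of *Id1*, *Smad7* and *Slc39a4* were not among the promoters available.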

Additional observations from a re-analysis of the deposited data

Results flagged for a closer look

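In 29 of 290 groups of 5 chow mice examined, 1 mouse lay farther from the nearest other mouse than Dixon's 95% limit allows. Chance gives about 1 in 20, but *Id3*, *Smad7*, *Atoh8* and *H2-Aa* were added because 1 mouse stood out in them and some list genes count in several groups, so the number is not to be read against that share. RYGB Chow 3 accounted for 14 of the 29, RYGB Chow 5 for 6, Sham Chow 2 for 5, Sham Chow 5 for 2, and Sham Chow 3 and Sham Chow 4 for 1 each. Values are in CPM unless stated.

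RYGB Chow 3 was high in *Hamp* (447), *Id1* (8.19), *Id3* (69.9), *Smad7* (17.4), *Atoh8* (35.3) and *Apoa5* (1332), genes that were lower in the other 4 RYGB Chow mice. It was also high in the macrophage genes *Cd5l* (179.5) and *Timd4* (12.5), in *Cfp* (39.6), in *Cyp2a4* (13.2) and in the stress genes *Fgf21* (74.2) and *Nupr1* (5.49). It was low in *Gls2* (191) and over the zonation list, whose median deviation from the 10 mice was -0.39 on the log2 scale.

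RYGB Chow 5 was high in *Igtp* (208.5), *H2-Aa* (79.8), *Lcn2* (12.6) and *Saa2* (38.3), low in *Spout1* (9.79), and the acute-phase list had its median deviation at 0.26 there. Among the Sham Chow mice, mouse 2 was high in *Dusp6* (37.7), *Fgf21* (29.7), *Nupr1* (1.5), *Abcc4* (3.21) and *Gpnmb* (1.55), mouse 3 in *Saa2* (11.7), mouse 4 in *Pdk1* (153) and mouse 5 in *Mrpl32* (24.5), while mouse 5 was low in *Lgals3* (1.45).

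The surgery difference on HFD differed from that on chow, at an interaction adjusted p under 0.05 in edgeR, in 22 of the 111 genes printed. Most of these were chosen for a small p on chow, which enters the interaction, and 11.5% of the genes at an unadjusted p under 0.05 on chow passed, against 5.06% of all genes. Given as the log2 fold change on HFD minus that on chow, the largest were *Hamp2* (-9.93), *Cyp2a4* (-8.64) and *Hamp* (-7.51). Each of these genes had chow mice near or below 1 CPM, where values rest on few reads, so their size and order are uncertain. The value for *Hamp* was -3.27 without RYGB Chow 3. *Cyp2a4* had a positive fold change on chow and a negative one on HFD. Other negative values were those of *Gpnmb* (-3.56), *Lgals3* (-1.56), *Hk3* (-1.43), *Nckap1l* (-1.15) and *Cyba* (-1.02). The stromal genes *Col14a1* (-1.04) and *Dcn* (-0.62), the interferon-induced *Ifit2* (-1.73), the acute-phase gene *Saa2* (-2.64) and the regulators *Dusp6* (-0.97), *Lhx6* (-0.90) and *Dmpk* (-0.83) had values of the same sign. So did the metabolic and transport genes *Gstm3* (-3.02), *Cyp3a59* (-1.68), *Abcc4* (-1.48), *Ucp2* (-1.20) and *Glul* (-0.80). The IGF genes *Igfbp2* (2.15) and *Igf1* (0.77) had the opposite sign. With each chow mouse left out in turn, *Dusp6* and *Gpnmb* passed in 3 of 10 fits and *Lhx6* in 2, and the other 19 genes passed in all 10.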

How the results depend on the processing

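The number of genes past an adjusted p of 0.05, 7 with edgeR, was 92 with DESeq2, 3 with limma-voom, 13 with no filter on low counts and 0 in the 10 chow mice alone, where 940 had an unadjusted p under 0.05. With each of the 20 mice left out it ran from 0 to 15. A count of 2 was reached without several HFD mice, which enter through the shared spread, the filter and the scaling. RLE factors, a stricter filter and a robust spread each kept all 7 genes, and scaling by library size kept 4 of 7. The number at an unadjusted p under 0.05 was 1325, 2175 with no filter, and 914 to 1782 with a mouse left out. The interaction count of 622 (305 higher and 317 lower on HFD minus chow) was 932 with DESeq2, 447 with no filter and 748 scaled by library size, which split it into 151 and 597. With a mouse left out it ran from 377 to 805, with the lowest values without Sham HFD 3, Sham HFD 5 (399) and Sham Chow 5 (404). *Slc39a4* had 1.13 (adjusted p = 0.0512) in the chow mice alone, 0.99 (adjusted p = 0.0645) without RYGB Chow 3 and 5, and 1.04 to 1.23 with a mouse left out. *Hamp* had -6.47 with limma-voom, -8.12 without both mice, and -7.40 to -2.83 with a mouse left out. The sign reversed for *Igtp* (-0.12 to 1.32 with a mouse left out, lowest without RYGB Chow 5, and -0.44 without both), *Fgf21* (-0.56 to 3.00, lowest without RYGB Chow 3, and -0.78 without both), *H2-Aa* (-0.068 to 0.59, lowest without RYGB Chow 5, and -0.045 without both), *Marco* (-0.026 without both), *Trem2* (-0.067 to 0.44, lowest without Sham Chow 5, and -0.063 without both) and *Kdr* (-0.038 to 0.34, lowest without RYGB Chow 1, and -0.041 with limma-voom). Where no cause is named it was not tested. With the replicate number as a block 8 genes passed, 4 of them among the 7. Same-numbered mice did not deviate together, with r from -0.26 to 0.17 over 30 pairs and 5 above 0.1, and 2 of 20 mice correlated best with their own number, so the numbers were not taken to pair the mice. At 14604854 to 22516253 counts a mouse, genes near 1 CPM rest on few reads and differences in them were not detectable with precision.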
